A study of Mus musculus with 12 samples.

Results

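The TCA cycle and respiratory chain genes described here are 38 nuclear genes of pyruvate entry, the TCA cycle, the respiratory complexes and ATP synthase. They were taken by gene symbol from a deposited table of 23446 genes. All 38 were in the table with at least 10 reads summed over the libraries, and all 38 were among the 12230 genes with enough reads to be tested. RNA came from C2C12 cells, an established mouse myoblast line whose cells divide in growth medium, and leave the cell cycle and fuse in differentiation medium. The 4 groups had 3 libraries each: growth medium with PBS (GM-PBS), growth medium with acetoacetate (GM-AA), differentiation medium with PBS (DM-PBS) and differentiation medium with acetoacetate (DM-AA), with acetoacetate given for 12 h. Acetoacetate is a ketone body, and the study asked which genes respond to it in dividing and in differentiating cells. Neither the salt of acetoacetate nor its dose is in the labels, so the effect of a counter-ion cannot be told apart from that of acetoacetate. Whether replicate libraries stem from separate cultures is not stated either, and p-values therefore reflect the spread between these samples alone, which may be technical.

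Pyruvate dehydrogenase turns pyruvate into acetyl-CoA, the TCA cycle oxidises the acetyl group and hands its electrons to NADH and FADH2, and the respiratory complexes pass these electrons to oxygen while pumping protons that drive ATP synthase. Acetoacetate enters the same cycle after the mitochondrial enzyme Oxct1 has activated it to acetoacetyl-CoA and thiolase has split that into acetyl-CoA. Differentiating muscle cells are known to build up their mitochondria, with the coactivators Ppargc1a and Ppargc1b and the factors Nrf1, Gabpa, Esrra and Tfam among the regulators of these nuclear genes.

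Between 7959519 and 9893564 reads were assigned to genes in a library. The labelled cell type was checked against its markers: the muscle intermediate filament Des stood at 1451 ± 29.0 CPM in GM-PBS and 1547 ± 16.2 CPM in DM-PBS (mean ± SD; CPM are read counts relative to a library's total, in the usual unit, after TMM scaling), and the determination factor Myod1 at 225 ± 7.88 and 165 ± 2.40 CPM. In growth medium Myog, the factor of terminal differentiation, stood at 11.8 ± 1.34 CPM with PBS and 15.0 ± 2.54 CPM with AA, and in differentiation medium at 70.2 ± 3.07 and 135 ± 11.5 CPM; the satellite cell factor Pax7 stood at 22.6 ± 0.880, 24.3 ± 0.573, 37.8 ± 2.17 and 39.4 ± 3.65 CPM in the same order. Summed markers of adipocytes, endothelial cells, immune cells and osteoblasts or chondrocytes reached at most 4.05 CPM in a library. The 5 epithelial markers summed to 84.6 to 87.6 CPM with PBS and 69.0 to 75.8 CPM with AA in growth medium, and to 27.4 to 31.0 and 29.4 to 30.6 CPM in differentiation medium. Of these only Krt19 had enough reads to be tested, and the defining marker Epcam had 1 read over the 12 libraries. Across tested genes, AA fold changes were lower in transcripts of higher GC content (Spearman's rho -0.271 in GM and -0.266 in DM); the median GC content of the 38 genes was 49.1%, against 50.8% for tested genes. The part of GC content and of length in the results was not tested beyond the values given here and below. The 1355 tested genes within 1 percentage point of the 38 genes' median GC content had a median log2 fold change of 0.01 with AA in GM and 0.01 in DM. They were not matched for length. The median length of the 38 genes was 1678.5 bases, against 2939.5 for tested genes.

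All 38 genes were well above the detection limit in each library, with 76 to 13675 reads for a gene in a library. The deposited RPKM scale divides by gene length, which the file header gives as the union of a gene's possible exons. Levels compared between genes depend on these lengths. On this scale the mean over the 12 libraries ran from 4.50 for Pcx to 471 for Atp5b. The median was 25.2 against 7.48 for tested genes. The highest levels belonged to ATP synthase and the chain's end: Atp5b and Atp5a1, the catalytic beta and the alpha subunit of the F1 head, at 471 and 150 RPKM, and Cox4i1, a regulatory subunit of cytochrome c oxidase, at 159 RPKM. Within the cycle, citrate synthase (Cs, 134 RPKM) and malate dehydrogenase (Mdh2, 97.4 RPKM) stood highest. The lowest levels were those of the anaplerotic enzyme pyruvate carboxylase (Pcx), of Cox15, which makes the haem A of cytochrome c oxidase (5.02 RPKM), of Suclg2, the GTP-specific beta subunit of succinyl-CoA synthetase (6.99 RPKM), and of Ndufs3, a core subunit of complex I (7.58 RPKM). Subunits of 1 enzyme did not stand at 1 level: in complex II the membrane anchors Sdhc and Sdhd were at 71.2 and 70.3 RPKM, the flavoprotein Sdha at 49.4 and the iron-sulphur protein Sdhb at 16.8.

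**Figure D1:**
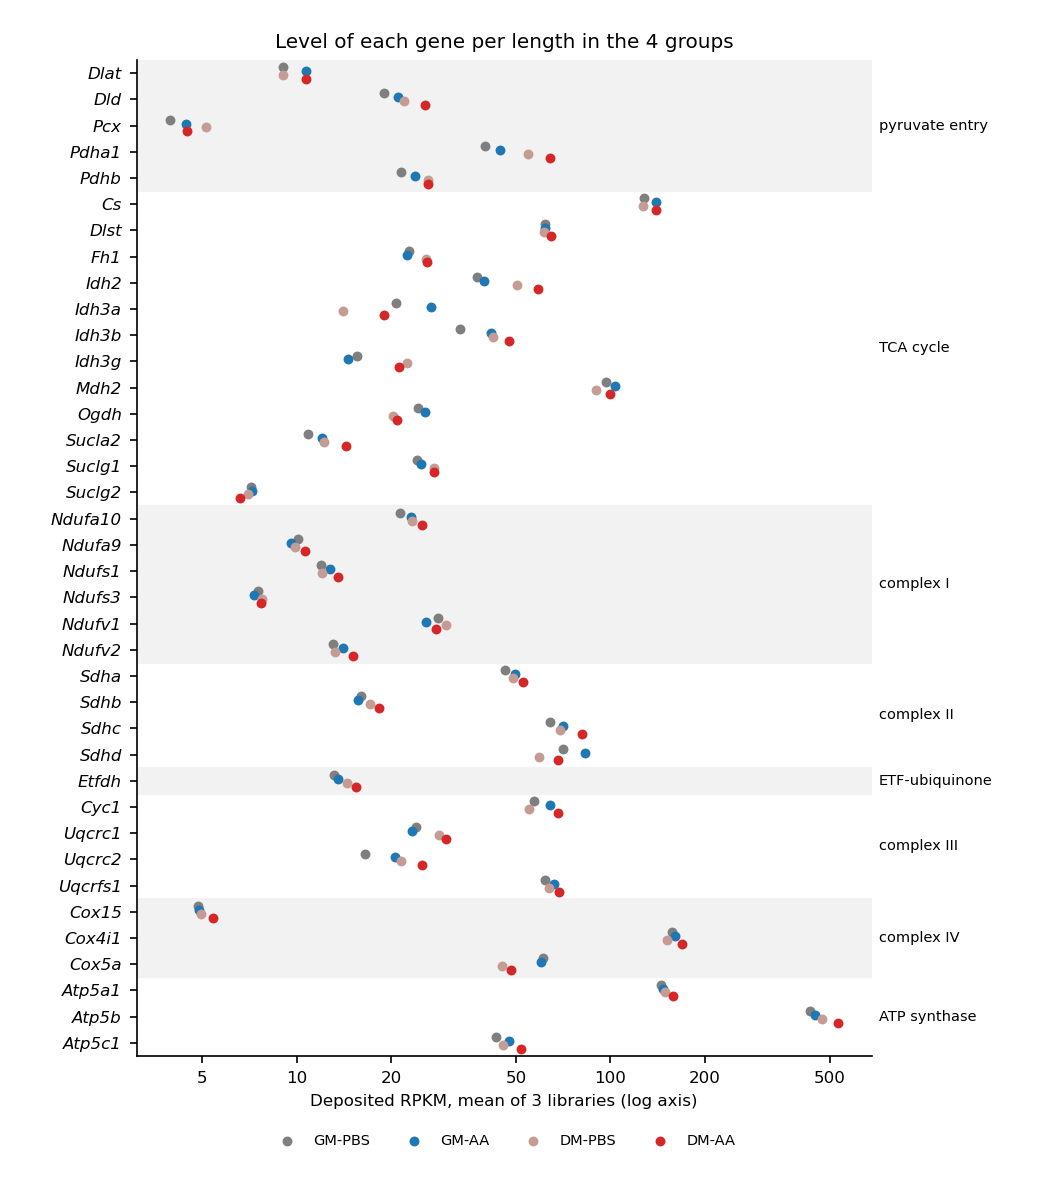
Deposited RPKM of the 38 genes (x axis, log scale) as the mean of the 3 libraries of each group, with genes ordered by role on the y axis and 1 colour per group. Levels span 4.50 (Pcx) to 471 RPKM (Atp5b) as means over all libraries, and the 4 groups of a gene lie close together beside that span.

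In growth medium, 7 of the 38 genes rose with acetoacetate and 0 fell past the test (edgeR's quasi-likelihood test, 5% false discovery rate), by 1.11-fold to 1.28-fold. Among all tested genes 9.76% rose and 11% fell. The median standard error (SE) of a log2 fold change was 0.061 in the 38 genes and 0.081 over all tested genes. Smaller fold changes could therefore pass in the 38 genes, and the part of this in the shares was not tested. The genes that rose were 2 subunits of the NAD-dependent isocitrate dehydrogenase (Idh3a and Idh3b), 2 components of pyruvate dehydrogenase (Pdha1 and Dlat), the succinate dehydrogenase anchor Sdhd, and Uqcrc2 and Cyc1 of complex III. The median log2 fold change of the 38 genes was 0.09, against -0.00 over all tested genes, and 29 of the 38 fold changes were above 0. Lower at an unadjusted p under 0.05 was 1 gene, Ndufv1, and DESeq2 called 0 lower. In the same libraries Des rose by 0.22 ± 0.044 and Myod1 fell by 0.34 ± 0.049 (adjusted p = 2.91e-04 and 3.52e-06, edgeR), and their part in these differences was not tested.

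Idh3a encodes the catalytic alpha subunit of the NAD-dependent isocitrate dehydrogenase, which turns isocitrate into 2-oxoglutarate in the cycle; it lies at chr9:54586334-54604661 on the plus strand (GRCm38). It was measured at 77.3, 80.2 and 78.7 CPM in the GM-PBS libraries and 99.6, 104 and 98.4 CPM in the GM-AA libraries, a log2 fold change of 0.35 ± 0.052 (SE, n = 3 libraries per group; adjusted p = 4.70e-06, edgeR). The groups did not overlap, and the lowest GM-AA library stood well above the highest GM-PBS library. Idh3b, the beta subunit of the same enzyme, was at 80.2, 79.8 and 78.3 CPM with PBS and 104, 95.4 and 97.4 CPM with AA (0.32 ± 0.054, adjusted p = 4.53e-05, edgeR). Its groups did not overlap either. The gamma subunit Idh3g was at 35.4, 31.4 and 31.0 CPM against 29.9, 33.6 and 27.4 CPM (-0.11 ± 0.084, adjusted p = 0.401, edgeR), with overlapping groups.

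Uqcrc2, a core protein of complex III, which passes electrons from ubiquinol to cytochrome c, was at 46.1, 53.8 and 47.2 CPM with PBS and 61.3, 64.4 and 56.6 CPM with AA (0.31 ± 0.068, adjusted p = 9.85e-04, edgeR). Exons of a gene on the other strand cover 19.8% of Uqcrc2, so part of its reads may belong to that gene. Sdhd was at 152, 137 and 140 CPM with PBS and 181, 157 and 163 CPM with AA (0.22 ± 0.056, adjusted p = 0.00372, edgeR). In both genes each AA library exceeded each PBS library. Dlat, the acetyltransferase core of pyruvate dehydrogenase, rose by 0.23 ± 0.065 (adjusted p = 0.0103), Pdha1, its catalytic alpha subunit, by 0.15 ± 0.046 (adjusted p = 0.0157), and Cyc1, the cytochrome c1 of complex III, by 0.16 ± 0.056 (adjusted p = 0.0424, all edgeR).

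The calls of Idh3a, Idh3b, Sdhd and Uqcrc2 held without each of the 12 libraries in turn. The call of Pdha1 was lost without GM-AA 2 or GM-PBS 1 (adjusted p = 0.0710 and 0.0521), that of Dlat without GM-AA 3 (0.0535), and that of Cyc1 without GM-AA 1, 2 or 3 or GM-PBS 2 or 3 (0.0603 to 0.178); Cs and Sdhc passed without GM-AA 1 (0.0399 and 0.0420) and Atp5c1 without GM-AA 3 (0.0481). The median fold change of the 38 genes fell to 0.05 without GM-AA 1, and to 0.06 with the GC and length trend removed, when 9 genes were higher.

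The remaining 31 genes lay between -0.14 (Ndufv1) and 0.16 (Pcx) in growth medium. All 6 measured subunits of complex I, the NADH dehydrogenase, were among them: Ndufs1 at 0.09 ± 0.060, Ndufv2 at 0.10 ± 0.096 and Ndufa10 at 0.10 ± 0.077 were above 0, and Ndufs3 at -0.05 ± 0.13, Ndufa9 at -0.08 ± 0.098 and Ndufv1 at -0.14 ± 0.060 below. Of these, 1 had an unadjusted p under 0.05 (Ndufv1) and DESeq2 called 0. Of all tested genes 9.76% rose and 11% fell, and 6 genes are too few to set 0 apart from these shares. The complex IV genes Cox4i1, Cox5a and Cox15 lay within -0.03 to 0.02, and the ATP synthase genes Atp5a1, Atp5b and the gamma subunit gene Atp5c1 at 0.00, 0.04 and 0.12. In complex II, Sdhc was at 0.12 (adjusted p = 0.0876), Sdha at 0.09 and Sdhb at -0.05. In the cycle, Cs (0.12, adjusted p = 0.0645), Mdh2 (0.09), Sucla2 (0.14), Idh2, the mitochondrial NADP-dependent isocitrate dehydrogenase (0.06), and Ogdh, the E1 subunit of 2-oxoglutarate dehydrogenase (0.07), were above 0. Its E2 subunit Dlst (-0.01), the succinyl-CoA synthetase subunits Suclg1 (0.03) and Suclg2 (0.01) and fumarase Fh1 (-0.03) stood near it. Dld, the dehydrogenase that both 2-oxoacid complexes share, was at 0.14, Pdhb, the beta subunit of pyruvate dehydrogenase, at 0.14, Uqcrc1 at -0.05, the Rieske protein Uqcrfs1 at 0.09, and Etfdh, which feeds electrons of fatty acid oxidation to ubiquinone, at 0.03.

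In differentiation medium, 16 of the 38 genes rose with acetoacetate and 0 fell past the test, by 1.09-fold to 1.35-fold. Among all tested genes 12.6% rose and 13.8% fell. The median SE here was 0.060 in the 38 genes and 0.082 over all tested genes. The part of this difference in the shares was not tested. The 16 comprised all 7 genes that rose in growth medium (100% of the 7, and 43.75% of the 16). The media share no library, and the same overlap over all tested genes was not computed. The other 9 were Idh2, Sdhc, Cs, Mdh2, Dld, Sucla2, Cox4i1, Atp5b and Atp5c1. The median log2 fold change was 0.11, against 0.00 over all tested genes, and 31 of 38 were above 0. Lower at an unadjusted p under 0.05 were 2 genes, Ndufv1 and Pcx, and DESeq2 called 0 lower and 13 higher. Myog rose from 70.2 to 135 CPM in the same libraries, and its part in these differences was not tested. In bulk samples, fewer cells of a type and less RNA per cell cannot be told apart.

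The count of 16 depended on single libraries: it was 7 without DM-AA 3 and 10 without DM-PBS 1. Genes past the test without each library in turn were Idh3a, Cyc1, Pdha1, Sdhc, Idh2 and Dld. Without DM-AA 3 the calls of Cs, Idh3b, Sucla2, Sdhd, Mdh2, Uqcrc2, Cox4i1, Atp5b and Atp5c1 were lost (adjusted p = 0.0545 to 0.166). Without DM-PBS 1 those of Cs, Sucla2, Sdhd, Mdh2, Uqcrc2 and Cox4i1 were lost (0.0684 to 0.127), and without DM-PBS 2 those of Cs, Idh3b, Sdhd, Mdh2 and Atp5c1 (0.0632 to 0.128). Single losses also came without DM-AA 1 (Cs, Idh3b, Dlat and Cox4i1, 0.0520 to 0.140), DM-AA 2 (Sucla2, Mdh2 and Cox4i1, 0.0714 to 0.176), DM-PBS 3 (Sucla2, Mdh2, Dlat and Cox4i1, 0.0505 to 0.0964) and GM-PBS 3 (Mdh2, 0.0513). With the GC and length trend removed, 14 genes were higher, and the calls of Dld (0.110) and Sucla2 (0.169) were lost.

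Idh3a again had the largest rise of the 38 genes, from 50.8, 51.3 and 54.8 CPM in DM-PBS to 69.2, 69.3 and 72.2 CPM in DM-AA (0.43 ± 0.058, adjusted p = 5.63e-07, edgeR). No DM-AA library overlapped a DM-PBS library, although all 6 lay below the growth medium libraries. Cyc1 was at 92.3, 105 and 108 CPM with PBS and 125, 121 and 129 CPM with AA (0.30 ± 0.056, adjusted p = 1.05e-04, edgeR), with DM-PBS 1 lowest of the 6. Pdha1 was at 228, 232 and 237 CPM against 271, 271 and 274 CPM (0.23 ± 0.044, adjusted p = 1.64e-04, edgeR). Its groups were tight and far apart; exons of a gene on the other strand cover 16.2% of it. Sdhc, a membrane anchor of complex II, was at 119, 131 and 126 CPM against 142, 148 and 151 CPM (0.23 ± 0.051, adjusted p = 0.00103, edgeR), without overlap.

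The next genes in order of p were Idh2, at 0.21 ± 0.049 (adjusted p = 0.00133), Atp5b at 0.15 ± 0.042 (0.00587), Dld at 0.21 ± 0.059 (0.00714), Dlat at 0.22 ± 0.065 (0.0105), Sdhd at 0.19 ± 0.058 (0.0118) and Uqcrc2 at 0.21 ± 0.064 (0.0126, all edgeR). Atp5b, the most abundant of the 38 genes, was at 1392, 1396 and 1347 CPM in DM-PBS and 1494, 1511 and 1595 CPM in DM-AA. Atp5c1 (0.17, adjusted p = 0.0153), Idh3b (0.15, 0.0251), Sucla2, the ATP-specific beta subunit of succinyl-CoA synthetase (0.22, 0.0318), Cox4i1 (0.15, 0.0330), Cs (0.13, 0.0355) and Mdh2 (0.13, 0.0447) completed the 16. Atp5c1 has processed pseudogenes that match 37.5% of its transcript at 95% identity or more, so its reads are uncertain. In each of the 16 genes the 3 DM-AA libraries stood above the 3 DM-PBS libraries, which a choice by the test on the same values favours. Some genes not past the test, such as Dlst, Sdha and Ndufs1, were separated in the same way. The share of all tested genes so separated was not computed.

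By role, 6 of 12 cycle genes, 3 of 5 pyruvate entry genes and 2 of 4 complex II genes rose in differentiation medium. So did 2 of 4 complex III genes, 1 of 3 complex IV genes, 2 of 3 ATP synthase genes and 0 of 6 complex I genes. Of all tested genes 12.6% rose, and 6 genes are too few to set 0 apart from that share. In complex I 2 genes had an unadjusted p under 0.05, Ndufs1 (0.16 ± 0.060, adjusted p = 0.0513) and Ndufv1 (-0.12 ± 0.059, adjusted p = 0.134), and DESeq2 called 0. Ndufs1 passed without DM-PBS 3 (adjusted p = 0.0251) or GM-PBS 1 (0.0479), and Ndufv2 (0.18 ± 0.095) without DM-PBS 3 (0.00909). Summed over its 6 genes, complex I took 235 to 243 CPM in DM-PBS and 241 to 252 CPM in DM-AA, which overlap. The 3 ATP synthase genes together took 2040 to 2096 CPM in DM-PBS and 2222 to 2342 CPM in DM-AA, which do not. Most of the ATP synthase sum was Atp5b, which passed the test on the same values, while Atp5a1 did not pass (0.07). How often sums over other sets of genes separate in this way was not computed.

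Pcx, which makes oxaloacetate from pyruvate to refill the cycle, had the lowest fold change of the 38 genes in differentiation medium. It was at 32.5, 34.5 and 34.9 CPM in DM-PBS and 30.4, 28.4 and 29.3 CPM in DM-AA (-0.21 ± 0.079, adjusted p = 0.0522, edgeR), without overlap but short of the threshold; it passed without either GM-AA 2 or GM-AA 3 (0.0441 and 0.0476). In growth medium it was at 27.0, 26.3 and 26.4 CPM with PBS and 29.2, 32.8 and 27.2 CPM with AA (0.16 ± 0.082, adjusted p = 0.164, edgeR). The AA libraries there stood above the PBS libraries, GM-AA 3 by little.

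**Figure D2:**
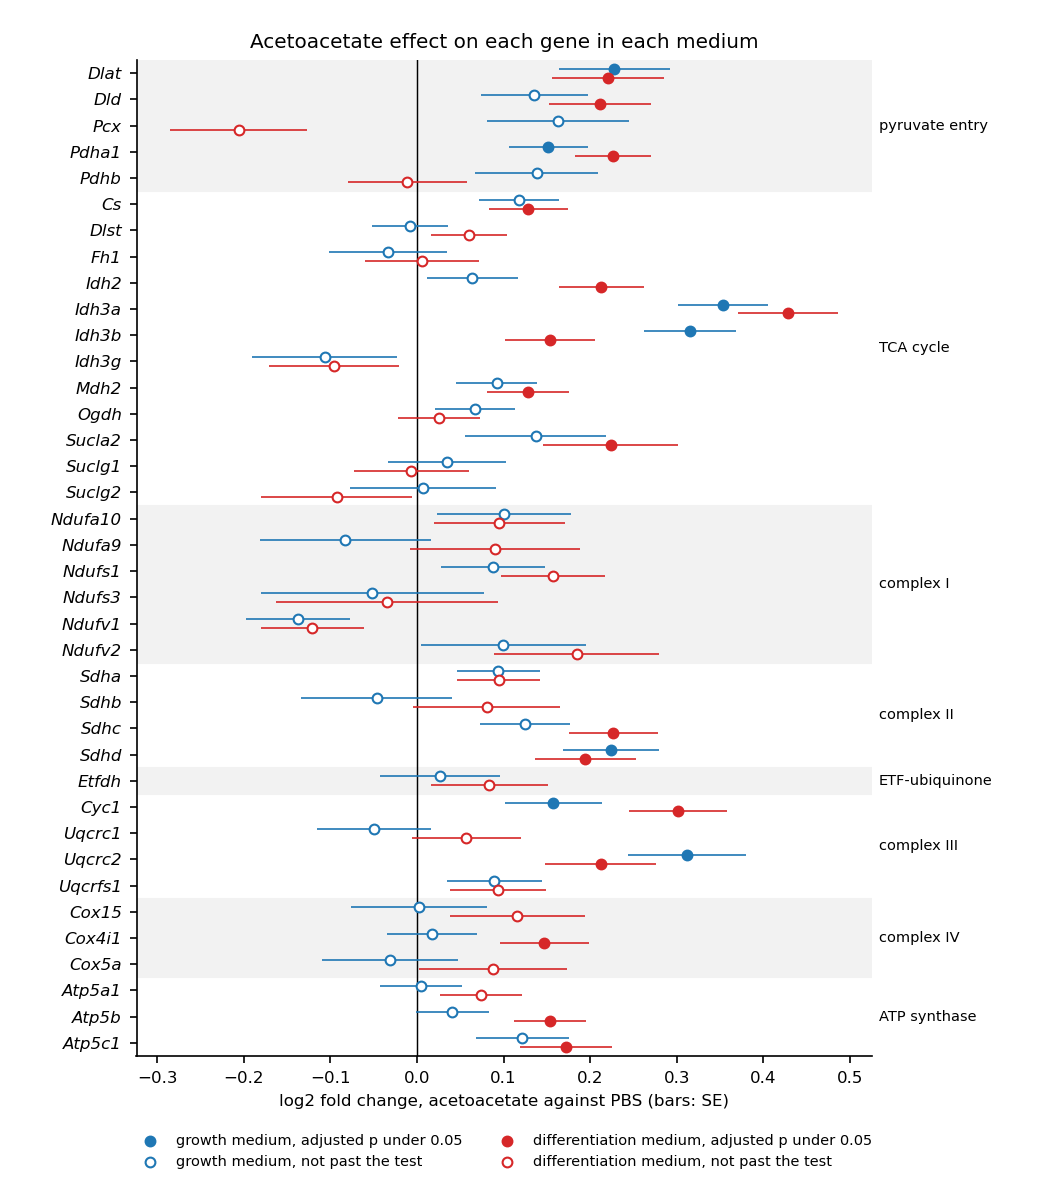
Log2 fold change with acetoacetate (x axis, bars are SE) of each of the 38 genes by role, in growth medium (blue) and differentiation medium (red); filled points passed the test at an adjusted p under 0.05. The 7 filled blue and 16 filled red points all lie above 0, none belongs to complex I, and the value farthest below 0 is that of Pcx in differentiation medium (-0.21).

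**Figure D3:**
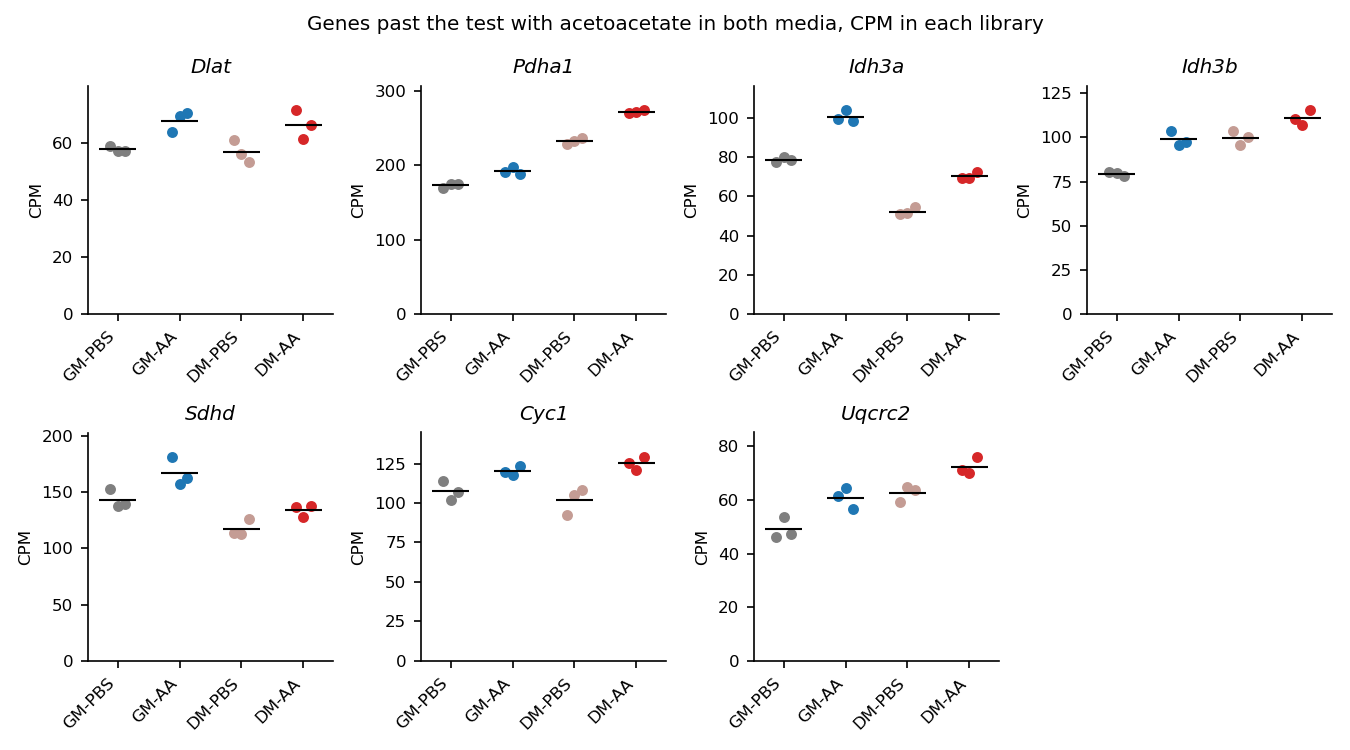
CPM (y axis, from 0) of the 7 genes that rose with acetoacetate in both media, 1 panel per gene, with 1 point per library in replicate order from left to right and a bar at the mean of each group of 3. Each acetoacetate group stands above the PBS group of its medium; Idh3a and Sdhd stand lower in differentiation than in growth medium with PBS, and Pdha1, Idh3b and Uqcrc2 higher.

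The difference between the 2 acetoacetate effects passed the test for 0 of the 38 genes in either direction, where 2.58% of tested genes had a larger and 2.67% a smaller log2 fold change in differentiation medium (edgeR). At an unadjusted p under 0.05 there were 3: Idh2 (effect larger in DM by 0.15 ± 0.072, adjusted p = 0.281), Idh3b (-0.16 ± 0.074, 0.244) and Pcx (-0.37 ± 0.11, 0.0517). DESeq2 called 0. Pcx passed when genes under a mean of 5 CPM were dropped (adjusted p = 0.0447) and without GM-AA 3 (0.0291). For the 9 genes that rose past the test in differentiation medium only, the difference itself did not pass, so these data do not show that they respond in 1 medium alone. The 95% intervals of the differences of all 38 genes lay within -0.60 and 0.46.

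Differentiation medium itself, compared in the PBS libraries, moved the genes in both directions: 10 of 38 rose and 5 fell, where 27% of tested genes rose and 27.4% fell. This comparison shares its control libraries with both acetoacetate comparisons. Pdha1, Pdhb, Dld and Pcx of pyruvate entry rose, as did Idh2, Idh3b and Idh3g of the cycle, Uqcrc1 and Uqcrc2 of complex III and Atp5b. Idh3a, Ogdh, Mdh2, Sdhd and Cox5a fell. The median log2 fold change was 0.05, against 0.01 over all tested genes.

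Idh3a and Idh3g, 2 subunits of 1 enzyme, had the lowest and the highest fold change of the 38 genes. Idh3a went from 77.3, 80.2 and 78.7 CPM in GM-PBS to 50.8, 51.3 and 54.8 CPM in DM-PBS (-0.59 ± 0.057, adjusted p = 8.42e-11, edgeR). Idh3g went from 35.4, 31.4 and 31.0 CPM to 44.4, 46.9 and 47.5 CPM (0.50 ± 0.078, adjusted p = 1.84e-06, edgeR). Neither gene's groups overlapped, and Idh3b rose as well, by 0.33 ± 0.054 (adjusted p = 3.44e-06, edgeR). On the RPKM scale the ratio of Idh3a to Idh3g, chosen after the values were seen and given as a description, was 1.34 ± 0.12 with PBS and 1.85 ± 0.14 with AA in growth medium, and 0.626 ± 0.018 and 0.905 ± 0.087 in differentiation medium (mean ± SD of 3 libraries). The ratio was above 1 in each growth medium library and below 1 in each DM-PBS library, and the DM-AA libraries stood at 0.849, 0.861 and 1.004. Where a ratio stands relative to 1 depends on the gene lengths used. The ratio of Idh3a to Idh3b was 0.627 ± 0.015 with PBS and 0.645 ± 0.041 with AA in growth medium. In differentiation medium it was 0.332 ± 0.019 and 0.401 ± 0.0074.

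Pdha1 went from 170, 175 and 175 CPM to 228, 232 and 237 CPM (0.42 ± 0.045, adjusted p = 9.17e-10, edgeR), and Idh2 from 104, 100 and 96.8 CPM to 133, 129 and 136 CPM (0.40 ± 0.051, adjusted p = 5.66e-08, edgeR). Both had groups far apart. Of the other pyruvate dehydrogenase components, Pdhb rose by 0.27 ± 0.070 (adjusted p = 0.00174) and Dld by 0.19 ± 0.061 (0.00979), while Dlat stood at -0.02 ± 0.066 (0.80, all edgeR). A processed pseudogene matches 71.3% of the Pdhb transcript, so its reads are uncertain. Uqcrc2 rose by 0.35 ± 0.068 (adjusted p = 4.16e-05), Pcx by 0.35 ± 0.080 (3.81e-04), Uqcrc1 by 0.22 ± 0.064 (0.00414) and Atp5b by 0.11 ± 0.042 (0.0296, all edgeR).

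Among the genes that fell, Ogdh went from 279, 259 and 267 CPM to 223, 221 and 214 CPM (-0.29 ± 0.047, adjusted p = 3.10e-06, edgeR). Cox5a, a nuclear subunit of cytochrome c oxidase, went from 69.1, 70.7 and 59.2 CPM to 46.9, 50.8 and 46.8 CPM (-0.46 ± 0.082, adjusted p = 1.33e-05, edgeR). In each gene the groups stood apart, although exons of a gene on the other strand cover 12.8% of Cox5a. Sdhd fell by 0.29 ± 0.058 (adjusted p = 7.43e-05) and Mdh2 by 0.12 ± 0.048 (0.0271, edgeR), while Sdha, Sdhb and Sdhc lay at 0.06, 0.06 and 0.07. All 15 genes past the test had groups that did not overlap, which a choice by the test on the same values favours. So did some genes not past it, such as Sdha, Sucla2 and Suclg1. The share of all tested genes with groups apart was not computed.

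The calls of 12 of the 15 genes held without each library. That of Dld was lost without DM-PBS 2 or GM-PBS 1 (adjusted p = 0.0590 and 0.0775), that of Mdh2 without DM-PBS 1 or 2 or GM-PBS 1 or 2 (0.0565 to 0.0912), and that of Atp5b without DM-PBS 1 or 2 or GM-PBS 3 (0.0776 to 0.0955). Suclg1 (0.15, adjusted p = 0.0510) passed without DM-AA 1, DM-AA 2 or GM-PBS 1 (0.0110 to 0.0471) and Fh1 (0.14, 0.0669) without GM-AA 1 or GM-PBS 3 (0.0483 and 0.0170).

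**Figure D4:**
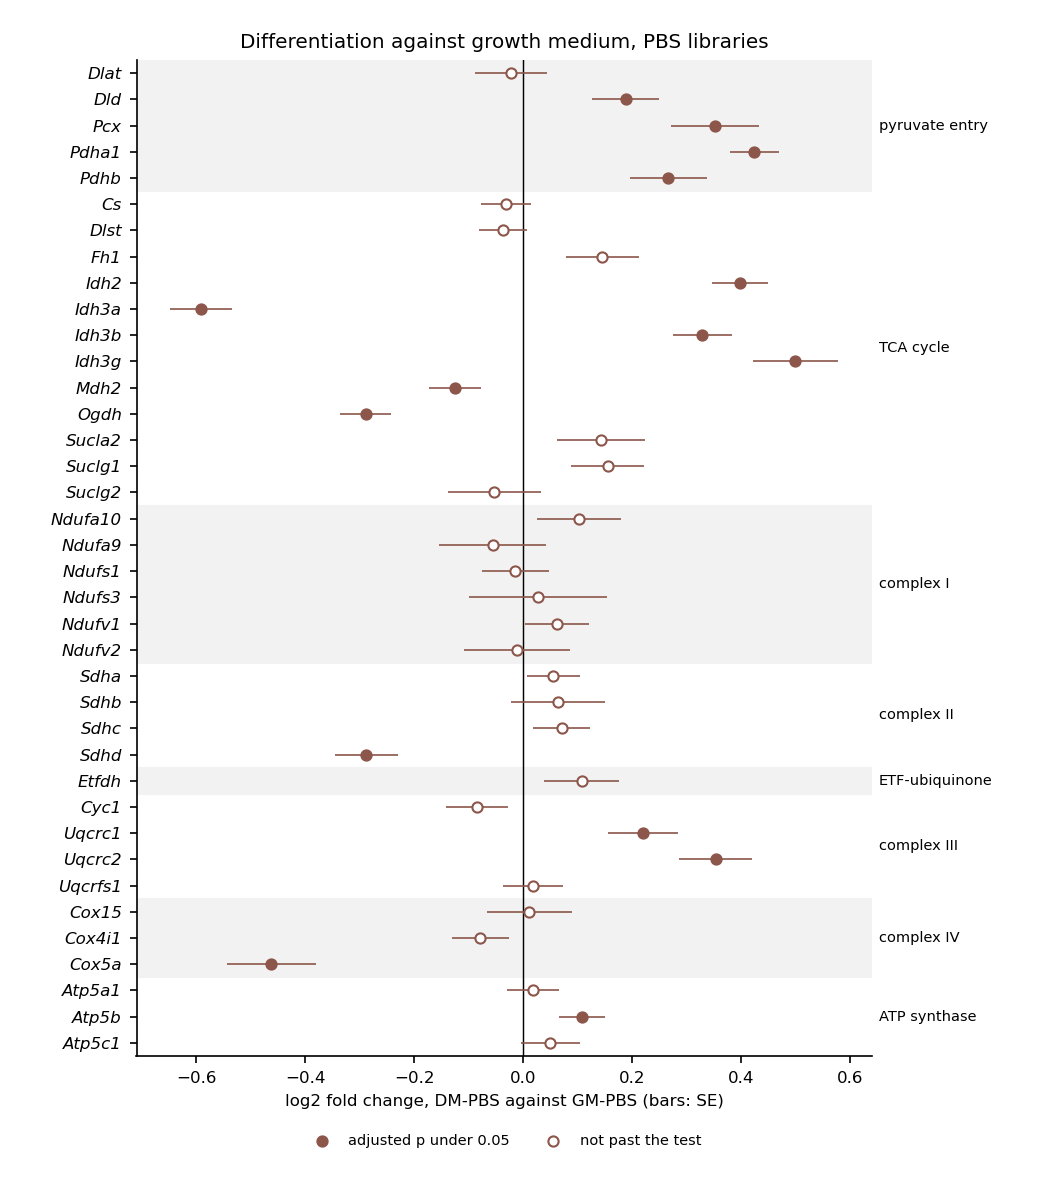
Log2 fold change of each of the 38 genes between differentiation and growth medium in the PBS libraries (x axis, bars are SE), by role; filled points passed the test. The 10 filled points above 0 and the 5 below 0 include subunits of 1 enzyme on opposite sides, with Idh3g at 0.50 and Idh3a at -0.59.

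Across the 3 comparisons, 16 of the 38 genes passed the test in none: all 6 complex I genes, Dlst, Suclg1, Suclg2, Fh1, Sdha, Sdhb, Etfdh, Uqcrfs1, Cox15 and Atp5a1. Of the 12230 tested genes, 9696 did not pass with AA in GM, 9000 with AA in DM and 5576 between media. The share of tested genes that passed in none of the 3 was not computed. For complex I in the comparison of media, 0 genes had an unadjusted p under 0.05 and DESeq2 called 0. There 27% of all tested genes rose and 27.4% fell past edgeR's test. Processed pseudogenes match 38.7% of the Suclg2 and 75.7% of the Ndufs3 transcript. The median SE of a fold change among the 38 genes was 0.061 with AA in GM, 0.060 with AA in DM and 0.061 between media. Over all tested genes the median SE was 0.081, 0.082 and 0.081 in the same order. Summed over the 38 genes, CPM ranged from 5443 to 5585 with PBS and 5655 to 5889 with AA in growth medium, and from 5617 to 5675 and 6067 to 6276 in differentiation medium, so the acetoacetate libraries of each medium stood above its PBS libraries. Abundant genes weigh most in these sums: in DM-PBS the ATP synthase genes averaged 2068 of 5654 CPM, and complex I 238.

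Promoter sequences are shown for 4 of these genes to compare subunits and neighbours in the chain that moved with the medium. Each runs 300 bases, from 250 before to 50 after the annotated start, 5′ to 3′ on the gene's strand, in lower case, with any searched motif in capitals (RefSeq, GRCm38.p6; the reads were aligned to another build). The motifs searched on both strands were CGCATGCG for NRF1, CCGGAAGT for GABP, TCAAGGTCA for ERR and AAGATGGCG for YY1; TCAAGGTCA appears in Sdhd as its reverse complement TGACCTTGA.
Sdhd, chr9:50603800-50604099 on the minus strand: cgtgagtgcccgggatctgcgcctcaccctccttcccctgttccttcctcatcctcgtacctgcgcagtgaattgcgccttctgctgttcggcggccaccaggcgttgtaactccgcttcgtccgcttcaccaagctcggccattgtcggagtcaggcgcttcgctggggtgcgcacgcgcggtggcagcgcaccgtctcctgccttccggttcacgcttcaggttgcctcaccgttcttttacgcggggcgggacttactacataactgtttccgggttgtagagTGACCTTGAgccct
Uqcrc1, chr9:108936398-108936697 on the plus strand: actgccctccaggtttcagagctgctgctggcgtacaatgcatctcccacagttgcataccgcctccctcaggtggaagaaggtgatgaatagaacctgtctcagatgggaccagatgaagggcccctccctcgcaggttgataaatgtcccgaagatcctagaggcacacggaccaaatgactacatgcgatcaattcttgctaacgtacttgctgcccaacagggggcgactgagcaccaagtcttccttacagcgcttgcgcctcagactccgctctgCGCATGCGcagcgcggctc
Idh3g, chrX:73786848-73787147 on the minus strand: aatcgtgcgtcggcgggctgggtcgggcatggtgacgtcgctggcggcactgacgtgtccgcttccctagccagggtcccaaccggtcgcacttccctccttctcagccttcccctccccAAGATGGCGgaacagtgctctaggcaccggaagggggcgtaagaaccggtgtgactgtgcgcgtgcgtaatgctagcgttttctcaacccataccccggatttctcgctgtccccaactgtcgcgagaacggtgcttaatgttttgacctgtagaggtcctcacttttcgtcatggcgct
Idh3b, chr2:130284402-130284701 on the minus strand: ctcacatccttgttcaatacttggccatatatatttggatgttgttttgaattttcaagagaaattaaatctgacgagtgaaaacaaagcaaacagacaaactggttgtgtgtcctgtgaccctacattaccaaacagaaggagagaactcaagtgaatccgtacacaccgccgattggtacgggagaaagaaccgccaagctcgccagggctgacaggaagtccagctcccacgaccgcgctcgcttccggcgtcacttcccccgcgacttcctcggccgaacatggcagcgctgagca
Sdhd holds the ERR motif just after its start, Uqcrc1 the NRF1 motif just after its start and Idh3g the YY1 motif upstream, and Idh3b holds none of the 4.

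Of the 38 genes, 31 had a promoter entry, and 9 of the 31 (29.0%) held at least 1 of the 4 motifs. This compares with 8.03% of 27025 genes and 7.21% of 32851 promoters. Those are all genes with an entry, whether or not they were tested here. A gene was counted if any of its promoters held a motif, and Ogdh held one only in promoters 5 and 6 of its 6. NRF1's motif was in Etfdh, Ogdh and Uqcrc1 (9.7% of the 31, against 2.07% of genes), GABP's in Cox15, Dlst and Ndufs3 (9.7% against 4.31%), YY1's in Idh3g and Ndufa9 (6.5% against 1.64%) and ERR's in Sdhd (3.2% against 0.47%). Of the genes that rose with acetoacetate, 4 of the 7 in growth medium and 11 of the 16 in differentiation medium had an entry, and in each set 1, Sdhd, held a motif. Of those that rose with differentiation medium, 9 had an entry and 2 held a motif, Idh3g and Uqcrc1; of those that fell, 4 had an entry and 2 held a motif, Ogdh and Sdhd. A match describes the letters of these windows and shows no binding.

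Other nuclear genes of the same enzymes, complexes and assembly pathways numbered 134 tested. With acetoacetate 16 of them rose and 11 fell in growth medium (11.9% and 8.21%, against 9.76% and 11% of all tested genes), and 10 rose and 13 fell in differentiation medium (7.46% and 9.7%, against 12.6% and 13.8%). Their median log2 fold changes were 0.03 and 0.08. Between media 30 rose and 33 fell (22.4% and 24.6%, against 27% and 27.4%), and the difference of the acetoacetate effects passed for 3.

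Around pyruvate dehydrogenase, 0 of 13 tested carriers and regulators rose with acetoacetate past edgeR's test, and 2 fell in growth and 3 in differentiation medium. At an unadjusted p under 0.05, 0 and 1 were higher, and DESeq2 called 0 higher. The falls were 15.4% and 23.1% of the 13, against 11% and 13.8% of all tested genes. Of all tested genes 9.76% and 12.6% rose, and 13 genes are too few to set 0 apart from these shares. Pdk1 and Pdk2, kinases that switch pyruvate dehydrogenase off, fell by 0.23 ± 0.044 and 0.43 ± 0.14 in growth medium and by 0.21 ± 0.050 and 0.52 ± 0.11 in differentiation medium. Pdp1, the phosphatase that switches it on, fell by 0.36 ± 0.071 in differentiation medium. Pdk4 stood at -0.06 ± 0.081 and 0.03 ± 0.070 (adjusted p = 0.629 and 0.811). The growth medium call of Pdk2 was lost without GM-AA 2 or 3, or without GM-PBS 2 or 3 (adjusted p = 0.0531 to 0.104), under DESeq2 (0.0793) and after removal of the GC and length trend (0.0572).

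Among 21 other enzymes and carriers of the cycle and its side branches, 1 rose and 4 fell in growth medium, and 1 rose and 5 fell in differentiation medium. In growth medium these are 4.76% and 19% of the 21, against 9.76% and 11% of all tested genes. In differentiation medium they are 4.76% and 23.8%, against 12.6% and 13.8%. The cytosolic isocitrate dehydrogenase Idh1 fell by 0.35 ± 0.057 and 0.53 ± 0.052 and ATP citrate lyase Acly, which exports cycle carbon as acetyl-CoA, by 0.26 ± 0.049 and 0.42 ± 0.047. The citrate carrier Slc25a1 fell by 0.48 ± 0.050 and glutamate dehydrogenase Glud1 fell by 0.32 ± 0.051 in differentiation medium, and the malic enzyme Me2 fell by 0.27 ± 0.068 while the aspartate aminotransferase Got1 rose by 0.26 ± 0.065 in growth medium.

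Of 30 other complex I genes, 4 rose and 3 fell in growth medium (13.3% and 10%, against 9.76% and 11% of all tested genes), where DESeq2 called 1 and 1. The genes named were Ndufb5 (0.47 ± 0.11), Ndufc1 (0.51 ± 0.13), Ndufa11 (-0.29 ± 0.086) and Ndufa4 (0.21 ± 0.067). In differentiation medium 0 rose past edgeR's test (3 at an unadjusted p under 0.05, 0 by DESeq2) and 1 fell, Ndufa3 (-0.26 ± 0.098). Under DESeq2 the calls of Ndufc1 (adjusted p = 0.0827), Ndufa4 (0.151) and Ndufa3 (0.115) were lost, and after removal of the GC and length trend those of Ndufa11 (0.0581) and Ndufa4 (0.0664). Without 1 library the calls of Ndufc1 (GM-AA 2, adjusted p = 0.0641), Ndufa11 (GM-AA 3, GM-PBS 1 or GM-PBS 2, 0.0611 to 0.198), Ndufa4 (GM-AA 2, GM-PBS 2 or GM-PBS 3, 0.0552 to 0.312) and Ndufa3 (DM-AA 2, DM-AA 3, DM-PBS 2 or DM-PBS 3, 0.0811 to 0.198) were lost. Ndufa4 is now counted with cytochrome c oxidase.

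Of 6 other complex III and cytochrome c genes, 2 rose in growth medium and 1 in differentiation medium: Uqcrb, the ubiquinone-binding subunit, by 0.20 ± 0.074 and 0.33 ± 0.073, and cytochrome c itself, Cycs, by 0.81 ± 0.26 in growth medium (0.44 ± 0.31 in differentiation medium, adjusted p = 0.327). The counts are 33.3% and 16.7% of the 6 genes, against 9.76% and 12.6% of all tested genes. Cycs had 284 reads over the 12 libraries, and its call was lost without GM-AA 1 and without GM-PBS 2 or 3 (adjusted p = 0.0708 to 0.288). Uqcrb's growth medium call was lost without GM-AA 1 or 2, without GM-PBS 1 or 3, and without DM-AA 3 or DM-PBS 2 (0.0501 to 0.298). DESeq2 called neither Uqcrb nor Cycs in growth medium (0.0989 and 0.0781), and Uqcrb was lost after removal of the GC and length trend (0.0694). Of 10 other complex IV genes 3 rose in growth medium, Cox6c (0.45 ± 0.067), Cox7a2 (0.31 ± 0.077) and Cox6a1 (0.13 ± 0.048), and 2 in differentiation medium, Cox7a2 (0.30 ± 0.075) and Cox8a (0.15 ± 0.054). These are 30% and 20% of the 10 genes, against 9.76% and 12.6% of all tested genes; DESeq2 called 1 and 0, without Cox7a2 (adjusted p = 0.0665 and 0.0572), Cox6a1 (0.0561) and Cox8a (0.0521). Calls were lost without 1 library for Cox7a2 (GM-AA 2, 0.0542, and DM-AA 3, 0.0698), Cox6a1 (GM-AA 2 or 3, a loss also seen without GM-PBS 2 or 3 and without DM-AA 2, 0.0504 to 0.150) and Cox8a (DM-AA 1 or 2 and DM-PBS 1 or 2, 0.0761 to 0.222).

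Of 13 other genes listed with ATP synthase, Atp5f1, the stalk subunit b, rose by 0.27 ± 0.050 in growth medium and 0.27 ± 0.049 in differentiation medium. In the latter Atp5o, the stalk's attachment subunit, rose by 0.31 ± 0.063. Atp5sl, which carries the name but is not a subunit of the enzyme, fell there by 0.38 ± 0.12. Of the 13 genes, 7.69% rose in growth medium, and 15.4% rose and 7.69% fell in differentiation medium. Among all tested genes the shares were 9.76% higher and 11% lower in growth medium, and 12.6% and 13.8% in differentiation medium. The call of Atp5sl was lost without DM-AA 2 or 3 and without DM-PBS 2 or 3 (adjusted p = 0.0539 to 0.0693). Of 27 assembly factors 4 rose in growth medium, Ndufaf4 (0.48 ± 0.10), Cox20 (0.56 ± 0.12), Cox17 (0.24 ± 0.073) and Cox16 (0.35 ± 0.12). In differentiation medium 4 rose and 1 fell, among them Cox17 (0.36 ± 0.074), Ndufaf4 (0.41 ± 0.12), Cox20 (0.30 ± 0.11) and Surf1 (-0.45 ± 0.12). Those that rose are 14.8% of the 27 in each medium, near the shares of all tested genes, and those that fell 0% and 3.7%. Calls lost without 1 library were those of Cox17 (GM-AA 2, GM-PBS 1 or GM-PBS 3, 0.0513 to 0.123), Cox16 (GM-AA 2 or 3 or GM-PBS 1, 2 or 3, 0.0633 to 0.208) and Cox20 (DM-AA 2 or 3 or DM-PBS 1 or 3, 0.0929 to 0.169). Under DESeq2 the calls of Cox16 in growth medium (0.117) and of Cox20 and Atp5sl in differentiation medium (0.110 and 0.0886) were lost. Removing the GC and length trend ended the call of Cox16 (0.126), and Cox20 stood at 0.17 in differentiation medium (0.256). Of 14 genes of other electron entry to ubiquinone, Sqrdl, the sulphide oxidase, fell by 0.68 ± 0.12 and 0.62 ± 0.12, and Gpd2, of the glycerol phosphate shuttle, by 0.18 ± 0.046 and 0.20 ± 0.050. Pdss1, which makes the ubiquinone tail, rose by 0.67 ± 0.19 in growth medium, a call lost without GM-PBS 1 or GM-PBS 3 (0.0518 and 0.0543). Of these 14 genes, 7.14% rose and 14.3% fell in growth medium, and 0% rose and 14.3% fell in differentiation medium.

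Of 19 tested regulators of mitochondrial gene expression, 2 rose and 2 fell with acetoacetate in each medium (shares near the 9.76% and 11% of all tested genes in growth medium and the 12.6% and 13.8% in differentiation medium). DESeq2 called 2 higher and 1 lower in growth medium, and 1 higher and 1 lower in differentiation medium. In growth medium the coactivator Ppargc1a was at 1.26 ± 0.483 CPM with PBS and 2.82 ± 0.521 CPM with AA (1.14 ± 0.32, adjusted p = 0.00876), and in differentiation medium at 1.68 ± 0.589 and 2.83 ± 0.754 CPM (0.74 ± 0.30, adjusted p = 0.0630, edgeR). It had 219 reads over the 12 libraries, its growth medium call was lost without GM-AA 3 or GM-PBS 2 (0.0562 and 0.0612), and it passed in differentiation medium without DM-AA 1 (0.0229). Ppargc1b rose by 0.44 ± 0.11 in growth medium and stood at 0.29 ± 0.12 in differentiation medium (adjusted p = 0.0585; 0.0215 without DM-AA 1). The differences between the media for these 2 genes, -0.40 ± 0.44 and -0.15 ± 0.16, did not pass (adjusted p = 0.722 and 0.725, edgeR).

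The mitochondrial transcription factor Tfam was at 0.07 ± 0.061 in growth medium and rose by 0.19 ± 0.061 in differentiation medium, a call lost without DM-AA 3, DM-PBS 1 or DM-PBS 2 (adjusted p = 0.0622 to 0.0804), and the coactivator Pprc1 rose by 0.26 ± 0.063 there. The DNA helicase Peo1 fell by 0.20 ± 0.073 in differentiation medium, lost without DM-AA 3, DM-PBS 1 or DM-PBS 2 (0.0971 to 0.261). Tfe3, a lysosomal and mitochondrial regulator, fell by 0.18 ± 0.051 and 0.31 ± 0.049, the first lost without GM-PBS 1 (0.120). Gabpa fell by 0.14 ± 0.049 in growth medium, lost without GM-AA 1, GM-AA 3 or GM-PBS 2 (0.0847 to 0.239), and stood at -0.06 ± 0.049 in differentiation medium. Under DESeq2 the calls of Tfam (0.0591), Peo1 (0.114) and Gabpa (0.0781) were lost. After removal of the GC and length trend, Tfam stood at 0.13 (0.104) and Peo1 was lost (0.0773), while in differentiation medium Gabpa (-0.12, 0.0484) and Ppargc1b (0.34, 0.0273) passed. Nrf1 was at -0.10 ± 0.064 and 0.02 ± 0.065, and the nuclear receptor Esrra at 0.02 ± 0.073 and -0.02 ± 0.076.

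Of the 3 genes of ketone body use, the thiolase Acat1 rose by 0.21 ± 0.065 and 0.23 ± 0.065, calls lost without GM-AA 2 or GM-PBS 3 (adjusted p = 0.0788 and 0.0573) and without DM-PBS 3 (0.0509). Oxct1 was at 0.12 ± 0.050 (adjusted p = 0.0756; 0.0276 without GM-AA 3) in growth medium and -0.09 ± 0.051 (0.222) in differentiation medium. The growth medium call of Acat1 was also lost under DESeq2 (0.0622) and after removal of the GC and length trend (0.0635). With that trend removed Oxct1 passed in differentiation medium (-0.13, 0.0360), as did the difference of its effects between media (-0.21, 0.0453). Mitochondrially encoded subunits were not in the deposited table under the symbols searched, and were not analysed here.

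Between media, Pdk1 fell by 1.26 ± 0.047 and Pdk2, Pdk4 and Pdp1 rose by 0.91 ± 0.11, 0.65 ± 0.075 and 0.59 ± 0.072, among 13 regulators of which 5 rose and 3 fell. These are 38.5% and 23.1% of the 13, against 27% and 27.4% of all tested genes. In the side branches 8 of 21 rose and 5 fell (38.1% and 23.8%), with Idh1 at 1.22 ± 0.054, Acly at 0.66 ± 0.047, Me2 at -0.75 ± 0.072 and Glud1 at 0.38 ± 0.051. Of 30 other complex I genes 7 rose and 6 fell (23.3% and 20%, below the 27% and 27.4% of all tested genes; 6 and 3 by DESeq2), with Ndufv3 at -0.48 ± 0.061, Ndufa4 at 0.44 ± 0.067 and Ndufc1 at 0.58 ± 0.13. Of 10 genes listed with complex IV, 4 rose and 3 fell (Cox7a2l 0.36 ± 0.050, Cox6c 0.42 ± 0.067, Cox6a1 0.25 ± 0.048, Cox7c -1.0 ± 0.20), 40% and 30% of the 10. In complex III, Uqcrq fell by 0.44 ± 0.052 and Cycs stood at -0.40 ± 0.31.

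Of 27 assembly factors 2 rose and 10 fell (7.41% and 37%, against 27% and 27.4% of all tested genes; 2 and 7 by DESeq2), with Lrpprc at -0.44 ± 0.074, Sdhaf2 at -0.32 ± 0.064, Ecsit at -0.43 ± 0.11 and Cox20 at 0.64 ± 0.12. Of 13 genes listed with ATP synthase 4 rose and 2 fell (30.8% and 15.4%). Those named were Atpif1 (0.32 ± 0.057), Atp5sl (0.63 ± 0.13), Atp5f1 (0.19 ± 0.050) and Atp5j2 (0.16 ± 0.060). The call of Atp5j2 was lost without DM-PBS 2 or GM-PBS 3 (adjusted p = 0.0650 and 0.163, edgeR). Gpd2 (-0.63 ± 0.047), Dhodh (-0.86 ± 0.16) and Prodh (-0.74 ± 0.25, lost without DM-PBS 2 or GM-PBS 3, 0.107 and 0.0530) fell among the 14 genes of electron entry, 21.4% of them. Of the 19 regulators 4 rose and 3 fell, 21.1% and 15.8% (Tfe3 0.43 ± 0.049, Tfb2m 0.57 ± 0.12, Pprc1 -0.43 ± 0.062, Gabpb1 -0.33 ± 0.085), while Ppargc1a (0.42 ± 0.35), Ppargc1b (-0.07 ± 0.12), Esrra (-0.14 ± 0.075), Nrf1 (-0.10 ± 0.064), Gabpa (-0.09 ± 0.049) and Tfam (-0.00 ± 0.062) did not pass. Esrra passed with the GC and length trend removed (-0.20, 0.0167). Oxct1 fell by 0.17 ± 0.050, lost without DM-PBS 1 (0.0537).

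**Figure D5:**
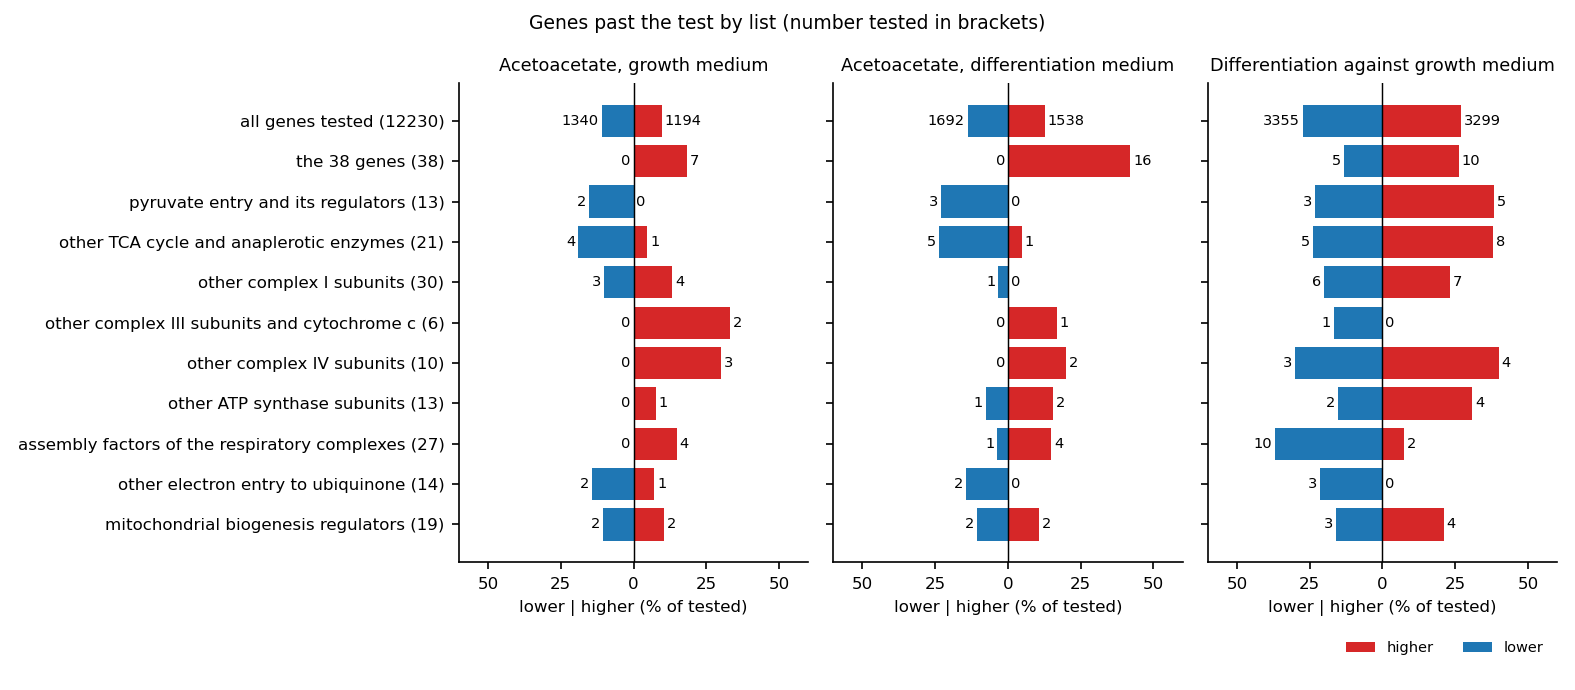
Share of tested genes past the test (x axis, percent; lower to the left in blue, higher to the right in red) for all tested genes, the 38 genes and 9 lists of other pathway genes, in the 3 comparisons; numbers at the bars count genes. In the acetoacetate panels the bar of the 38 genes extends to the right only (7 and 16 genes). The bars of the 13 pyruvate carriers and regulators extend to the left only (2 and 3 genes). These are 15.4% and 23.1% of that list, against 11% and 13.8% of all tested genes.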

How the data were processed

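RNA-seq libraries of 12 C2C12 samples were analysed. The submitters' processing notes name BWA 0.5.9-r16 and the build mm9. Annotation, strand and the read counting rule are each not given in the sources used here. Per gene, the table deposited by the authors holds raw read counts and RPKM values, per the file headers. RPKM served for levels compared between genes, and counts for every test.

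Genes were filtered with edgeR's filterByExpr by group (12230 of 23446 kept, at least 99.91% of the counts of each library) and scaled by TMM, and 1 model of 4 group means was fitted with edgeR 4.0.16 (R 4.3.3; glmQLFit and glmQLFTest, two-sided). P-values were adjusted over all tested genes by Benjamini and Hochberg, and "past the test" means 5% FDR. Standard errors (SE) were obtained by dividing each log2 fold change, without sign, by the square root of F. Depth was 7959519 to 9893564 reads per library, and intervals are at 95%.

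The members, gene lists and alternatives were chosen with earlier results of these data known. Members past the test are named in order of p, the 4 of smallest p with each library's values; of each list, up to 4 genes past the test of smallest p are named, and further pathway genes are given in each comparison, with 4 muscle markers as a check; some genes that this rule names are not reported here. Idh3a to Idh3g was chosen after its values were seen. GC content, overlaps and copies (95% identity over 100 bases) came from GENCODE M21 on GRCm38, matched by name for 98.48% of genes. Alternatives were RLE factors, the RPKM divisor as library size, DESeq2 1.42.0, no low-count filter, a mean of at least 5 CPM, only the 2 groups compared, a replicate block, a GC and length trend, and leaving out each library.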

Additional observations from a re-analysis of the deposited data

Results flagged for a closer look

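The difference between the acetoacetate effects in the 2 media was tested within 1 model (edgeR), and 5 of the genes named here passed; none belongs to the 38 genes. Slc25a10, the dicarboxylate carrier, had an effect of 0.27 in differentiation medium and -0.16 in growth medium (difference 0.42, adjusted p = 0.00478). Slc25a1, the citrate carrier, fell more in differentiation medium (difference -0.30, adjusted p = 0.00741). Glud1 had effects of -0.32 and -0.07 (difference -0.25, adjusted p = 0.0339), a call lost without DM-AA 2 or 3, without DM-PBS 1 or 2, without GM-AA 1 and without GM-PBS 2 or 3 (adjusted p = 0.0710 to 0.129) and under DESeq2 (0.0520). Myod1 fell by 0.34 in growth medium and stood at 0.06 in differentiation medium (difference 0.40, adjusted p = 3.41e-04). Myog rose by 0.94 in differentiation medium and stood at 0.35 in growth medium (adjusted p = 0.0489, and 0.0504 to 0.275 without GM-AA 2 or 3, without any 1 GM-PBS library and without DM-AA 2 or DM-PBS 1; difference 0.59, adjusted p = 0.0105), and this difference was lost without GM-AA 1 or GM-PBS 3 (adjusted p = 0.0510 and 0.0602).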

How the results depend on the processing

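Of the 21 alternatives, 12 leave out 1 library each. In growth medium the genes higher with acetoacetate numbered 6 to 9 under the other alternatives (0 lower) and 5 to 8 without 1 library; the median log2 fold change of the 38 genes was 0.0604 under the replicate block with the GC and length trend removed, and 0.0543 to 0.0942 without 1 library. In differentiation medium 13 to 17 were higher, and 7 to 17 without 1 library; 1 was lower, Pcx, with a mean of at least 5 CPM or only the 2 groups compared, and 0 to 1 without 1 library; the median was 0.0971 to 0.136 without 1 library. For the difference of effects 1 gene, Pcx, was lower with a mean of at least 5 CPM, and 0 to 1 without 1 library, with a median of 0.0226 to 0.0747. Between media the counts without 1 library were 8 to 11 higher and 4 to 5 lower. No called gene reversed its direction under an alternative.

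Replicate numbers were not shown to pair the samples: deviations of same-numbered libraries correlated at -0.028 to 0.024. Under the replicate block 7 genes were higher in growth medium and 15 in differentiation medium, where the call of Mdh2 was lost (adjusted p = 0.0576).

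Among the 38 genes, DESeq2 lost the calls of Cyc1 in growth medium (adjusted p = 0.0914) and of Idh3b, Sucla2 and Mdh2 in differentiation medium (0.0579, 0.0737 and 0.0552); calls of other pathway genes lost under DESeq2 stand beside those genes. The cause of these changes was not tested, except that leaving out a library leaves fewer samples. At a median SE of 0.061 a log2 fold change under 0.12 has a 95% interval that includes 0.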
